A study of Homo sapiens with 12 samples.

Results

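Collagen, laminin and integrin genes encode the fibres and sheets that surround a cell and the receptors with which the cell holds on to them. They were taken from the gene table by symbol: every collagen chain gene (COL, a type number, A and a chain number), every laminin chain gene (LAMA, LAMB or LAMC with a number) and every integrin alpha or beta subunit gene (ITGA or ITGB). The rule found 82 of the 26475 genes in the table, 44 of them collagens, 12 laminins and 26 integrins. It reads symbols and no measured value, but it was set with earlier results of these data known. RNA sequencing had been carried out on PA-1, an ovarian teratocarcinoma cell line, and SK-OV-3, an ovarian adenocarcinoma cell line, each given either the solvent DMSO or 5 µM BAY-850 over 48 h. BAY-850 is an inhibitor of the bromodomain of ATAD2, a chromatin-bound ATPase. The 4 groups (PA-1 DMSO, PA-1 BAY-850, SK-OV-3 DMSO and SK-OV-3 BAY-850) held 3 replicates each, described by the submitters as biological replicates, which gave 12 libraries. PA-1 was kept in DMEM and SK-OV-3 in RPMI, both with fetal bovine serum, so the line and its medium cannot be told apart. The cells carried no engineered allele, 1 dose was used, and each histology was represented by 1 line.

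A collagen is built from 3 alpha chains, which may be identical or come from different genes. Fibrillar collagens such as types I and V form the cables of connective tissue, type IV forms the mesh of the basement membrane under epithelia, and type VI forms beaded filaments around cells. A laminin is a cross-shaped trimer of an alpha, a beta and a gamma chain in the same basement membrane. Integrins are pairs of an alpha and a beta subunit that bind collagen, laminin, fibronectin or counter-receptors on other cells and link them to the actin cytoskeleton. Carcinoma cells are known to alter both the matrix they secrete and the integrins with which they adhere to it.

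The libraries held between 34544505 and 51840233 counts and between 15629 and 18414 genes with a count. The 82 genes made up 0.482% to 1.07% of each library's counts, and ribosomal RNA genes made up 7.94% to 16.9%. One library stood apart. SK-OV-3 BAY-850 replicate 3 held 449 genes with between 1 and 9 counts, against 2055 to 3067 in the other 11 libraries, so weakly expressed genes were mostly listed at 0 there. All 7 epithelial markers listed for SK-OV-3 (the keratins KRT7, KRT8, KRT18 and KRT19, with ERBB2, MUC1 and EPCAM) reached a mean of 1 CPM (counts-per-million, with libraries scaled by TMM factors) in that line. Of these 7, 5 also did so in PA-1. Of the 8 embryonal markers listed for PA-1 (LIN28A, SALL4, POU5F1 and others), 7 did so in PA-1 and 2 in SK-OV-3. With DMSO, the epithelial markers summed to 925 to 978 CPM in PA-1 and 4130 to 4410 CPM in SK-OV-3. The 6 fibroblast markers summed to 96 to 98.3 CPM in PA-1 with DMSO, and the 4 endothelial markers to 95.5 to 105 CPM. The 6 leukocyte markers summed to at most 1.24 CPM in any library.

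Of the 82 genes, 50 reached a mean of 1 CPM in PA-1 with DMSO and 53 in SK-OV-3 with DMSO, 39 did so in all 4 groups, and 18 in none. The members at this level differed between the lines, and the same count was not made over all genes. In PA-1 and not SK-OV-3, the DMSO mean reached 1 CPM for 10 genes, among them the cartilage-type fibrillar chains COL2A1 and COL11A1, the collagen IX chains COL9A1 and COL9A3, COL4A6, and LAMA1, the alpha chain of the embryonic laminin. In SK-OV-3 and not PA-1 it did so for 13 genes, among them COL4A3 and COL4A4 of basement membrane collagen, LAMA3 and LAMB3 of epithelial laminin, and the integrin subunits ITGB3 and ITGB6.

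The lines with DMSO were compared by the quasi-likelihood test of edgeR, and p-values here and below were adjusted by Benjamini-Hochberg over all genes tested, with a call at an adjusted p under 0.05. Among the 67 members tested, 35 were higher and 26 lower in SK-OV-3, a share of 91% beside 80.3% of all 16070 genes tested (40.1% higher and 40.2% lower). The replicates of the 2 lines did not overlap for 35 members in the higher and 26 in the lower direction, beside 41.0% and 41.3% of all genes (82.3% together). Most genes thus differed between the lines, members or not. LAMA3 was represented by 1 count in the PA-1 DMSO libraries and 18190 in the SK-OV-3 DMSO libraries, a ratio of 17900 (95% counting interval 3220 to 709000). No count of COL4A3 or ITGB6 was seen in PA-1 with DMSO. Against a floor of 3 counts over the group, COL4A3 was at least 1870-fold higher and ITGB6 at least 1130-fold higher in SK-OV-3. The intervals and floors cover counting error only.

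LAMB3 differed by 9.22 on the log2 scale (SE 0.17, adjusted p = 9.3e-14). Among the collagens, COL8A1 (a short-chain collagen) was higher in SK-OV-3 by 6.77 (SE 0.23) and COL12A1, which decorates collagen fibrils, by 6.69 (SE 0.12). All 8 integrin beta subunit genes were called higher in SK-OV-3, beside 40.1% of all genes tested. Among the 6 other than ITGB6 and ITGB7, the log2 differences ran from 1.44 for ITGB8 to 6.98 for ITGB4. ITGB7 rested on 1 count in PA-1 with DMSO, a ratio of 237 (counting interval 42.1 to 9390), and shares 1474 exon bases with ZNF740 on the opposite strand. ITGA4, the alpha subunit that pairs with it or with ITGB1, had 6 counts in PA-1 and 830 in SK-OV-3, a ratio of 136 (counting interval 62.4 to 373).

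In the other direction, LAMA1 differed by -7.57 (SE 0.15, adjusted p = 1.57e-13), COL9A3 by -8.24 (SE 0.19) and ITGA7, a laminin-binding subunit of muscle, by -4.96 (SE 0.08), SK-OV-3 minus PA-1. COL4A6 had 3249 counts in PA-1 and 6 counts in SK-OV-3, all 6 in DMSO replicate 1, a ratio of 549 (counting interval 252 to 1500). COL21A1 was represented by 510 counts in PA-1 and 1 count in SK-OV-3, a ratio of 517 (counting interval 92.4 to 20500). The beta chains LAMB1 and LAMB2 differed by less, -0.99 (SE 0.06) and -0.62 (SE 0.06). ITGA9 and ITGA2B were also lower in SK-OV-3, by -2.53 (SE 0.29) and -1.79 (SE 0.24). Because the line and the medium changed together, these values describe the cultures and not the lines alone. The DMSO libraries of this comparison are the same ones against which BAY-850 was compared in each line.

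**Figure D1:**
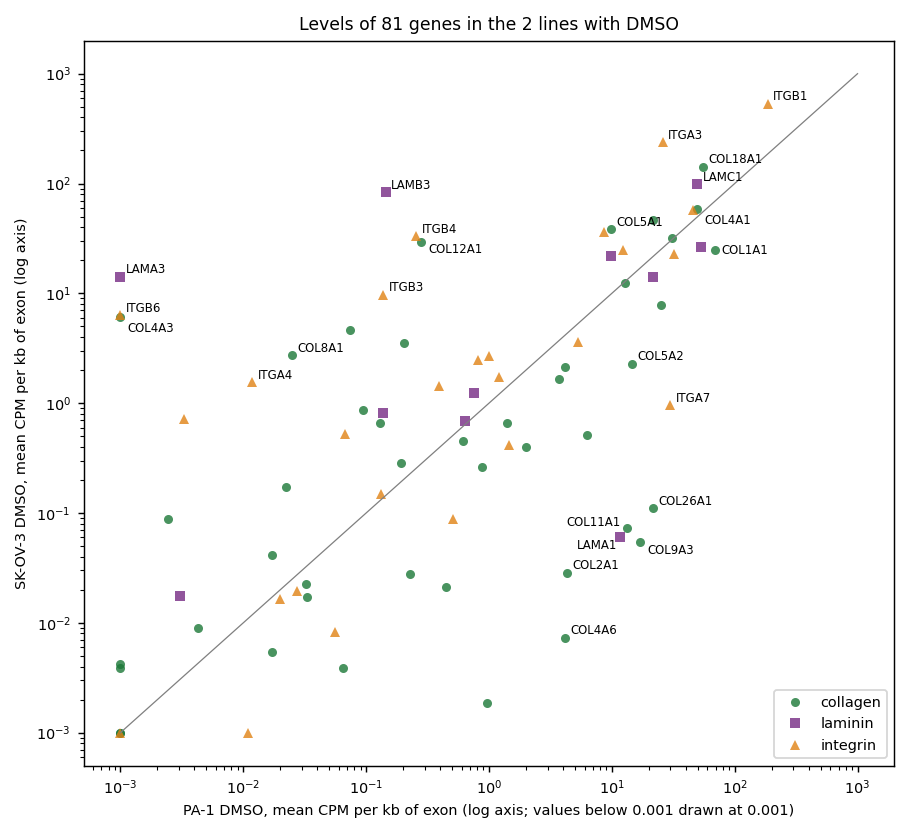
Mean level of 81 of the genes with DMSO in PA-1 (x axis) and SK-OV-3 (y axis), in CPM per kb of exon on log axes, with 1 point per gene shaped and coloured by family, values below 0.001 drawn at 0.001 and a line at equal levels. ITGB1 sits at the upper right in both lines, while LAMA3, LAMB3 and ITGB6 lie far above the line and LAMA1, COL9A3 and COL4A6 far below it.

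Divided by exon length, ITGB1, the common beta subunit, was the most abundant of the 82 transcripts in both lines. Its level was 185 CPM per kb ± 5.39 (SD, n = 3) in PA-1 and 531 ± 27.7 in SK-OV-3 with DMSO. In PA-1 it was followed by COL1A1 at 68.6 ± 9.15, COL18A1 at 54.9 ± 3, LAMB1 at 53 ± 2.39, LAMC1 at 49.8 ± 3.12 and COL4A1 at 49.3 ± 1.58 CPM per kb. Among the last 4 of these, neighbours in the order differed by less than the sum of their SDs. In SK-OV-3 it was followed by ITGA3 at 238 ± 2.37, COL18A1 at 141 ± 1.18, LAMC1 at 98.2 ± 7.74 and LAMB3 at 82.9 ± 1.58 CPM per kb, each step wider than the sum of the SDs. The beta subunit ITGB1 pairs with ITGA3 to form a laminin receptor.

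With BAY-850 in SK-OV-3, 10 members rose and 20 fell among the 60 tested, which is 50% of those tested beside 20.4% of all 15348 genes tested in that line. Over all genes, 10.8% were called higher and 9.56% lower. The treated and DMSO libraries did not overlap for 13 members in the higher and 25 in the lower direction (63.3% of those tested), beside 18.6% and 20.0% of all genes (38.6% together). The median log2 fold change of the members tested was -0.23 beside -0.01 for all genes. By family, 3 collagens rose and 9 fell of 28 tested, 2 laminins rose and 5 fell of 11, and 5 integrins rose and 6 fell of 21. In bulk RNA, fewer cells of a kind and less RNA per cell cannot be told apart. Without replicate 3 of the SK-OV-3 BAY-850 group, 10 members rose and 23 fell.

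The fibrillar collagens went down in SK-OV-3: 5 of the 8 tested fell and none rose, with a median of -0.91. At an unadjusted p under 0.05, 6 were lower and 1 higher. DESeq2 also called 5 lower and 0 higher, with COL3A1 in place of COL11A1. COL1A1, the main chain of type I collagen, stood at 163, 167 and 171 CPM with DMSO and at 109, 102 and 82.2 CPM with BAY-850. It fell by 0.77 on the log2 scale (SE 0.08, adjusted p = 7.1e-05), and the groups did not overlap. The partner chain COL1A2 was at 11.5, 12.7 and 10.3 CPM and then 6.18, 4.01 and 5.22 CPM, a fall by 1.15 (SE 0.18, adjusted p = 0.000962). Both chains of the type I trimer were thus lower in every treated library than in any DMSO library.

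Type V collagen, which regulates the diameter of type I fibrils, showed the same direction. COL5A1 was measured at 312, 331 and 334 CPM with DMSO and 232, 236 and 203 CPM with BAY-850, and fell by 0.54 (SE 0.06, adjusted p = 7.53e-05). COL5A2 was measured at 15.7, 16.1 and 16.6 CPM and then 7.92, 7.92 and 7.54 CPM, and fell by 1.04 (SE 0.11, adjusted p = 6.39e-05). The fifth fibrillar gene called was COL11A1, at 14, 24 and 33 counts with DMSO and 5, 2 and 0 counts with BAY-850, under 1 CPM in every library (log2 fold change -3.43, SE 1.04, adjusted p = 0.0377). Its call was lost with DESeq2, with the replicate block with or without GC offsets, and on leaving out any 1 of the SK-OV-3 DMSO replicates or SK-OV-3 BAY-850 replicate 2, and it was not tested where every library needed 10 counts. Of the fibrillar genes not called, COL3A1 had a log2 fold change of -2.13 (SE 0.76, adjusted p = 0.0719), COL11A2 0.33 (adjusted p = 0.489) and COL27A1 0.27 (adjusted p = 0.109).

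Other matrix collagens were lower as well. COL12A1 read 307, 362 and 388 CPM with DMSO and 223, 230.5 and 210.5 CPM with BAY-850, a fall by 0.66 (SE 0.08, adjusted p = 0.000113). COL8A1, a collagen of endothelial and vessel wall matrix, read 13.8, 16.4 and 16.3 CPM and then 9.38, 8.37 and 5.89 CPM, a fall by 0.98 (SE 0.16, adjusted p = 0.00161). The membrane-spanning collagen COL23A1 read 13.5, 13.8 and 15.3 CPM and then 6.25, 6.92 and 7.38 CPM, a fall by 1.04 (SE 0.13, adjusted p = 0.000208). In all 3 the treated libraries lay below the DMSO libraries. COL7A1, the anchoring fibril collagen, and COL18A1, the source of endostatin, had log2 fold changes of 0.00 (adjusted p = 0.984) and -0.13 (adjusted p = 0.106). COL18A1 was called lower with DESeq2, with the GC trend removed (-0.22, adjusted p = 0.00763) and with the replicate block and GC offsets.

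Type VI collagen went the other way. COL6A1 was at 31.5, 33.3 and 34.8 CPM with DMSO and at 64.9, 63.4 and 52.1 CPM with BAY-850, a rise of 0.86 on the log2 scale (SE 0.09, adjusted p = 4.02e-05). COL6A2 was at 144, 138 and 136 CPM and then 255, 252 and 238 CPM, a rise of 0.84 (SE 0.05, adjusted p = 8.44e-07). These genes are neighbours on chromosome 21, 93046 bases apart on the same strand. COL6A3, whose chain completes the trimer, lies elsewhere and was weaker in SK-OV-3, at 4.35, 3.92 and 4.62 CPM and then 4.67, 3.91 and 2.92 CPM. Its log2 fold change was -0.16 (SE 0.22, adjusted p = 0.666), and the groups overlapped.

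The basement membrane pair COL4A1 and COL4A2 encodes the common type IV trimer from opposite strands of chromosome 13. In the RefSeq table (GRCh38.p14) the gene starts are separated by 126 bases, so the windows from 250 bases before to 50 bases after each start share 226 bases. They are shown because the genes of the pair share a promoter. COL4A1 lies at chr13:110307108-110307407 on the minus strand and COL4A2 at chr13:110307034-110307333 on the plus strand. Each is printed 5′ to 3′ on its own gene's strand, with the CCAAT box, read as ATTGG on the COL4A1 strand, in capitals. CCAAT, searched on both strands, occurs in a window of 39.7% of the 27305 genes in the table.
COL4A1: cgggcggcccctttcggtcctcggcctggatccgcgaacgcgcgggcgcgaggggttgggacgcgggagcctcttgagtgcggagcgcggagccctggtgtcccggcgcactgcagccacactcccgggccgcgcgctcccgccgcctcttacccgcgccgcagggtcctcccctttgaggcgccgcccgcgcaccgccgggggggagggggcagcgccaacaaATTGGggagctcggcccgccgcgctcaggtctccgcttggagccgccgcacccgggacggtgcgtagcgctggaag
COL4A2: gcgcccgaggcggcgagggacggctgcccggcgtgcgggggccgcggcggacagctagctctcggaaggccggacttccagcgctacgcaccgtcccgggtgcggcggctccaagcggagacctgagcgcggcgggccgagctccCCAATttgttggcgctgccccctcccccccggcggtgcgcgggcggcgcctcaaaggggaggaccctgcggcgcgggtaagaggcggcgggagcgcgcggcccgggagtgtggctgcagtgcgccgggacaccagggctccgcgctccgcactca

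The single match is the same 5 bases in both windows, at position -26 from the start of COL4A1 and -105 from that of COL4A2. COL4A1 was at 404, 451 and 460.1 CPM with DMSO and 312, 300.3 and 285 CPM with BAY-850 in SK-OV-3, and fell by 0.55 (SE 0.06, adjusted p = 6.62e-05). COL4A2 was at 576, 616 and 634 CPM and then 561, 578 and 493 CPM, with overlapping groups and a log2 fold change of -0.16 (SE 0.06, adjusted p = 0.0775). COL4A2 was called lower with DESeq2, with the GC trend removed (-0.21, adjusted p = 0.0256), with the replicate block and GC offsets, and without SK-OV-3 DMSO replicate 1. The difference between the 2 genes was not tested. The kidney-type chains form another divergent pair, COL4A3 and COL4A4, with 111 bases between them. COL4A3 read 45.3, 47.9 and 53.5 CPM and then 57.7, 58.8 and 57.5 CPM, a rise of 0.25 (SE 0.07, adjusted p = 0.0299) with no overlap. This call was lost with library size alone, with all 12 libraries in 1 fit, and without DMSO replicate 1, DMSO replicate 2, BAY-850 replicate 1 or BAY-850 replicate 2 (adjusted p from 0.0135 to 0.154 over all alternatives). COL4A4 read between 8.3 and 9.1 CPM with DMSO and had a log2 fold change of -0.21 (adjusted p = 0.323).

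The alpha and beta chains LAMA3 and LAMB3, which belong to laminin of epithelial attachment, rose in SK-OV-3. LAMA3 stood at 148, 160.3 and 160.1 CPM with DMSO and 216, 202 and 175 CPM with BAY-850, a rise of 0.35 (SE 0.07, adjusted p = 0.00502). LAMB3 stood at 365, 379 and 372 CPM and then 476, 473 and 397 CPM, a rise of 0.27 (SE 0.06, adjusted p = 0.00833), which lost the call where all 12 libraries shared 1 fit (adjusted p = 0.0734). For both chains, no treated library overlapped the DMSO libraries.

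The windows of LAMA3 and LAMB3 are shown because both hold TGANTCA, searched on both strands with N as any base. This pattern is wider than the AP-1 site, in which N is C or G. A promoter window was found for 58 of the 82 members. The LAMA3 window is at chr18:23872770-23873069 on the plus strand. It lies at an internal start, as the gene begins at 23689443 in the GENCODE annotation. The LAMB3 window at chr1:209651325-209651624 on the minus strand belongs to 1 of its RefSeq starts (GRCh38.p14). Its windows that begin at 209652280 and 209652376 held no match and are not shown. Capitals mark the AP-1 letters.
LAMA3: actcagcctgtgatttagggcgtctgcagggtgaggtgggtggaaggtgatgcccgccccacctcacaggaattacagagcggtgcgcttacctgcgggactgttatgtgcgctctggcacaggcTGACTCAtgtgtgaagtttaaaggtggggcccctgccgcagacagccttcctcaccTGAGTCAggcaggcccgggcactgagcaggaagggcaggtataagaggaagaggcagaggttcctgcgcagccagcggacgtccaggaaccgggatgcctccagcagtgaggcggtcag
LAMB3: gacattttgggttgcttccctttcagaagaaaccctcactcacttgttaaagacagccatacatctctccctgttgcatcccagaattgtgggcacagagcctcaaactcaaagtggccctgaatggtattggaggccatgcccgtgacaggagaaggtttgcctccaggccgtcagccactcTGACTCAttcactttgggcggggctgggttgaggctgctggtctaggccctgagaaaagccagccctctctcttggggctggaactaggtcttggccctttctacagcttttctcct

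Counted from the start that each window belongs to, the matches begin at positions -125 and -69 in LAMA3 and at -67 in LAMB3. TGANTCA occurred in a window of 4 of the 58 members (6.9%) beside 9.37% of all 27305 genes. Both shares are of the wider pattern, and COL10A1, 1 of the 4, matched only as TGAATCA and TGATTCA. Of the 5 members with a window that rose in SK-OV-3 it was found in 3, LAMA3, LAMB3 and the fibronectin receptor subunit ITGA5, where it begins at position -6, and of the 13 that fell in 0. This split was seen after the changes were known, and a match is a description of letters and not of a bound factor. For comparison, the GC box GGGCGG was found in all 5 that rose, in 9 of the 13 that fell, and in 48.3% of all genes, and CCAAT in 1 of the 5 and 3 of the 13. TATAAA was found in 1 and 2, GGAATG (the TEAD site) in 1 and 3, and ACGTG (the core of the hypoxia response element) in 1 and 3, beside 14%, 16.7% and 24.9% of all genes.

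Other laminin chains fell in SK-OV-3. LAMC1, the gamma chain of most laminins, was at 708, 792 and 826 CPM with DMSO and 623, 620.1 and 599 CPM with BAY-850, a fall by 0.33 (SE 0.06, adjusted p = 0.00176). LAMC3 was at 5.56, 5.55 and 3.97 CPM and then 3.12, 2.61 and 2.05 CPM, a fall by 0.95 (SE 0.24, adjusted p = 0.0173). The call of LAMC3 was lost without DMSO replicate 1 and without DMSO replicate 2 (highest adjusted p = 0.0912). LAMB1, which joins LAMC1 in the same trimers, was at 155, 165 and 177 CPM and then 129, 131 and 133 CPM, a fall by 0.33 (SE 0.06, adjusted p = 0.00234). LAMA2, the alpha chain of muscle laminin, fell by 0.71 (SE 0.13, adjusted p = 0.00287), from 12.1, 12.4 and 11.5 CPM to 6.96, 6.9 and 7.92 CPM. LAMA5, the alpha chain of the widespread laminin-511, and LAMB2 were not called, with log2 fold changes of -0.10 (adjusted p = 0.337) and 0.03 (adjusted p = 0.819).

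Among the laminin-binding integrins of SK-OV-3, ITGA3 and the pair ITGA6 and ITGB4 moved apart. ITGA3 was at 1150, 1161 and 1173 CPM with DMSO and 1621, 1631 and 1482 CPM with BAY-850, a rise of 0.45 (SE 0.04, adjusted p = 2.13e-05). ITGA6 was at 301, 360 and 354 CPM and then 223, 218 and 200.3 CPM, a fall by 0.66 (SE 0.07, adjusted p = 6.5e-05). ITGB4, which pairs with ITGA6 in the hemidesmosome, was at 206, 204 and 202 CPM and then 154, 146 and 138 CPM, a fall by 0.48 (SE 0.05, adjusted p = 8.73e-05). ITGB1, the partner of ITGA3, fell by 0.18 (SE 0.04, adjusted p = 0.0164), from 1961, 2138 and 2159 CPM to 1809, 1856 and 1843 CPM. That call was lost with scaling by library size alone, with the replicate block and GC offsets, and without SK-OV-3 DMSO replicate 2 or 3 or SK-OV-3 BAY-850 replicate 1 or 2.

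The receptors of the αV family and the fibronectin receptor were also divided. ITGAV was at 156, 193 and 190.5 CPM with DMSO and 121.5, 119.5 and 119 CPM with BAY-850, a fall by 0.58 (SE 0.08, adjusted p = 0.000319). Its epithelial partner ITGB6 was at 28.9, 31.1 and 28.5 CPM and then 14.2, 13 and 15.6 CPM, a fall by 1.04 (SE 0.10, adjusted p = 4.03e-05). Its partner ITGB3, the vitronectin receptor subunit, rose by 0.69 (SE 0.10, adjusted p = 0.000707), from 36.1, 43.5 and 47.5 CPM to 68.6, 75.5 and 60.5 CPM. ITGB5, a further partner of ITGAV, had a log2 fold change of 0.12 (adjusted p = 0.113), and ITGB8 one of -0.25 (adjusted p = 0.28). ITGA5 rose by 0.40 (SE 0.06, adjusted p = 0.000655), from 103, 104 and 96.2 CPM to 135, 138 and 125 CPM. In each called gene of this group the treated and DMSO libraries did not overlap.

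Integrins of leukocytes were low but also moved. ITGAX was at 1.03, 0.84 and 0.72 CPM with DMSO and 2.58, 3.13 and 1.92 CPM with BAY-850, a rise of 1.55 (SE 0.36, adjusted p = 0.0104). ITGB2, which pairs with ITGAX, was at 4.9, 6.31 and 3.81 CPM and then 10.3, 9.18 and 8.1 CPM, a rise of 0.88 (SE 0.20, adjusted p = 0.00861). ITGA4, whose dimers bind fibronectin and VCAM1, fell by 1.15 (SE 0.21, adjusted p = 0.00264), from 6.01, 7.78 and 7.6 CPM to 2.56, 3.82 and 3.24 CPM. The 6 leukocyte markers summed to 0.619 to 0.981 CPM in the SK-OV-3 DMSO libraries and 0.577 to 0.886 CPM in the BAY-850 libraries, with CD3E and MS4A1 at 0 in both groups. The ITGAX call was lost without DMSO replicate 3 and without BAY-850 replicate 2 (highest adjusted p = 0.0603). ITGB2 shares 220 exon bases with ITGB2-AS1 on the opposite strand, and whether counting used strand is not given in the sources used here.

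**Figure D2:**
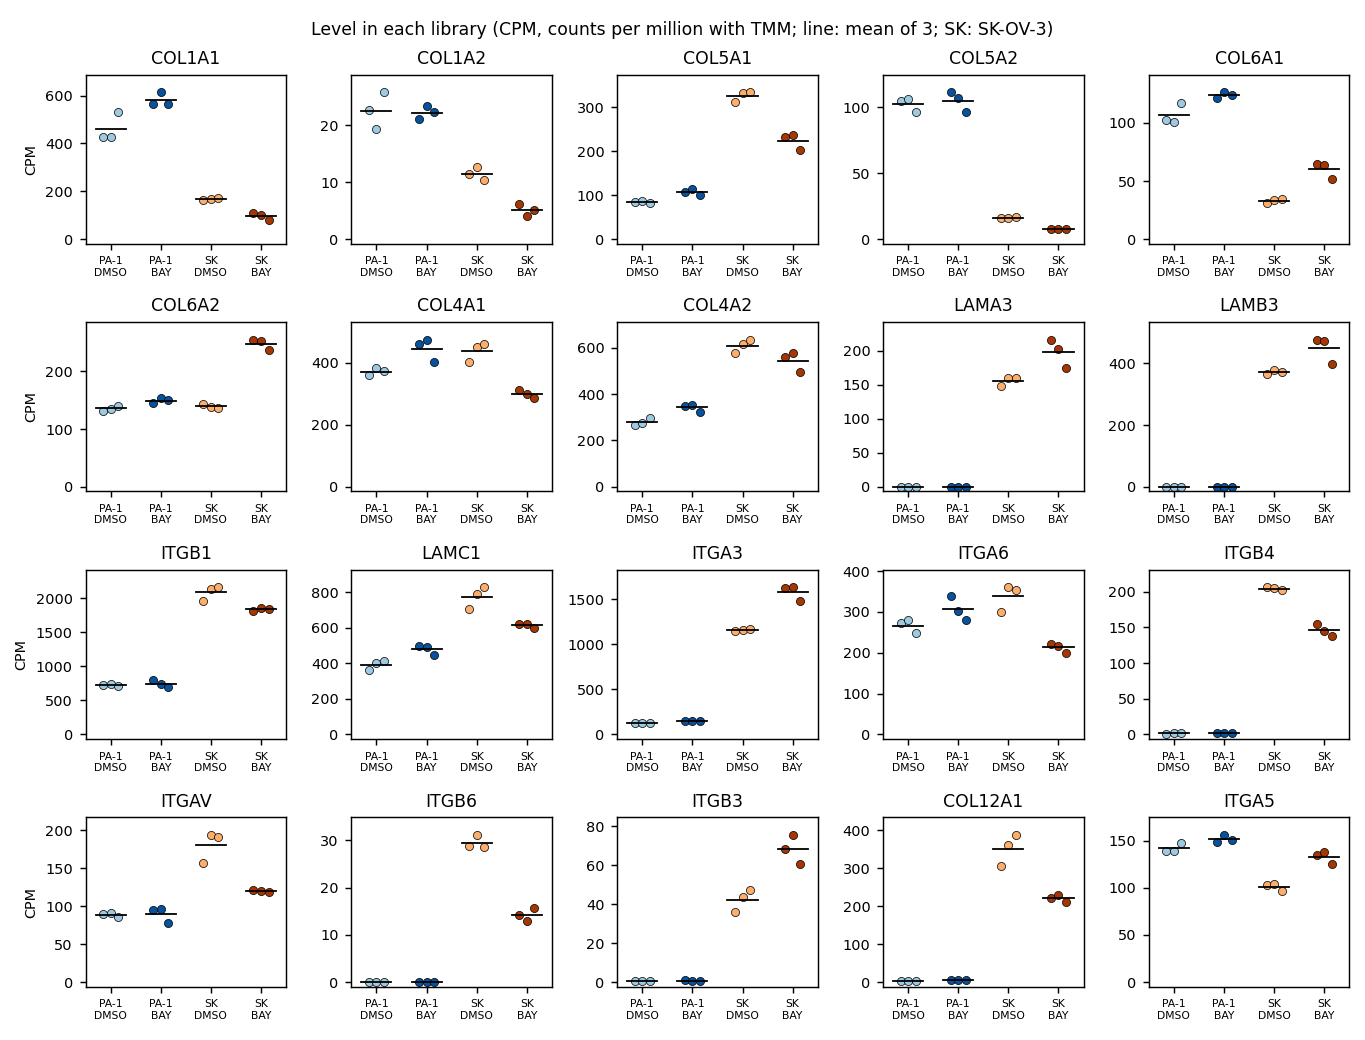
CPM of 20 genes in each of the 12 libraries (y axes start at 0 and differ between panels), with 3 points per group and a line at the group mean. In SK-OV-3 the BAY-850 points of COL1A1, COL5A2, LAMC1, ITGA6 and ITGB6 lie below the DMSO points, and those of COL6A1, COL6A2, LAMA3, ITGA3 and ITGB3 above them.

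Marker lists were followed in SK-OV-3 as well, where 20.4% of all genes tested were called. Outside the epithelial list, too few markers were tested to set their calls apart from that share. The epithelial markers summed to 4130 to 4410 CPM with DMSO and 2900 to 3360 CPM with BAY-850. Of these 7, 4 fell (KRT8, KRT19, ERBB2 and EPCAM), beside 9.56% of all genes called lower. The 6 fibroblast markers summed to 7.22 to 8.7 CPM and then 2.57 to 2.98 CPM, with 1 of the 5 tested called, LUM. Fibroblast markers other than 1 stayed under 1 CPM there, and DCN was at 0 with BAY-850. The embryonal markers that mark PA-1 summed to 36.3 to 40.5 CPM in SK-OV-3 with DMSO and 78.7 to 81.7 CPM with BAY-850, and 1 of the 3 tested rose (DNMT3B, by 1.18, SE 0.07, adjusted p = 6.89e-07). Of that list, SOX2 and DPPA4 were at 0 with DMSO, and LIN28B and DPPA4 with BAY-850. The endothelial markers summed to 6.18 to 6.31 CPM and then 5.39 to 5.87 CPM, and 0 of the 3 tested were called. Of the leukocyte markers, 0 of the 3 tested were called, and 0 of the 6 reached a mean of 1 CPM. The part these markers had in the changes of the matrix genes was not tested.

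Fewer members were called in PA-1, and their changes were smaller in size. Of 59 members tested, 10 rose and 1 fell, 18.6% beside 7.13% of all 15212 genes tested (4.65% higher and 2.48% lower). The libraries did not overlap for 23 members in the higher and 3 in the lower direction (44.1%), beside 14.7% and 12.7% of all genes (27.4% together). The median log2 fold change of the members was 0.14 beside 0.00 for all genes. The genes that rose were 6 collagens (COL1A1, COL4A1, COL4A2, COL5A1, COL7A1 and COL18A1), 3 laminins (among them LAMA5 and LAMC1) and 1 integrin (ITGA3), and those named rose by 0.26 to 0.36 on the log2 scale.

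LAMC1 was at 365, 402 and 411 CPM in PA-1 with DMSO and 494, 493 and 446 CPM with BAY-850, a rise of 0.28 (SE 0.06, adjusted p = 0.0133). This gene fell in SK-OV-3. COL1A1 was at 427, 426 and 533 CPM and then 566, 614 and 567 CPM, a rise of 0.33 (SE 0.08, adjusted p = 0.0194). COL5A1 was at 84.8, 86.3 and 83 CPM and then 107, 114 and 99.2 CPM, a rise of 0.33 (SE 0.06, adjusted p = 0.00558). The partner chains of these fibrillar collagens were not called in PA-1, with log2 fold changes of -0.02 (adjusted p = 0.924) for COL1A2 and 0.03 (adjusted p = 0.84) for COL5A2.

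COL4A1 was at 359, 383 and 372 CPM and then 459, 473 and 401 CPM, a rise of 0.26 (SE 0.06, adjusted p = 0.0244). COL4A2 was at 268, 274 and 295 CPM and then 349, 354 and 323 CPM, a rise of 0.29 (SE 0.06, adjusted p = 0.00804). Here both genes of the divergent pair were called. COL18A1 was at 367, 359 and 398 CPM and then 450.3, 465 and 472 CPM, a rise of 0.30 (SE 0.06, adjusted p = 0.00489). COL7A1 was at 121.5, 119 and 114 CPM and then 150.2, 147 and 133 CPM, a rise of 0.27 (SE 0.06, adjusted p = 0.0148). LAMA5 was at 101.5, 107 and 129 CPM and then 138, 157 and 138 CPM, a rise of 0.36 (SE 0.08, adjusted p = 0.0185). These 3 genes encode basement membrane proteins or the fibrils that anchor it. ITGA3 was at 126, 124 and 130.5 CPM and then 148, 155 and 153 CPM, a rise of 0.26 (SE 0.05, adjusted p = 0.0109), and was the only member called higher in both lines. ITGAE, the subunit that binds E-cadherin, was at 21.6, 20.4 and 19 CPM and then 14.6, 16 and 15.5 CPM, a fall by 0.41 (SE 0.09, adjusted p = 0.0139). In PA-1 the groups of each of these genes did not overlap.

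The PA-1 rises moved with base composition and with single libraries. Over the genes tested, the log2 fold change in PA-1 rose with the GC content of the longest transcript (Spearman's rho 0.365 across 14775 genes, which are not independent replicates). The members that rose had a median GC content of 61.2%, beside 54.8% for all members tested, 53.7% for members not called and 48.8% for all genes. After this trend was removed, 2 members rose (LAMC1 among them) and ITGAE fell. With library size alone as the scaling of edgeR, 0 rose and ITGAE fell, and DESeq2 called 17 higher. At an unadjusted p under 0.05, TMM scaling gave 22 higher. Over all genes, TMM gave 707 higher and 378 lower, library size alone 235 and 231, and library size without ribosomal RNA genes 543 and 505. Without PA-1 DMSO replicate 1, DMSO replicate 2, BAY-850 replicate 1 or BAY-850 replicate 2, the number that rose was 5, 1, 8 and 2, and the call of ITGAE was lost in the first 3 of these. The share of ribosomal RNA ran from 9.88% to 14.1% in the PA-1 DMSO libraries and from 10.6% to 16.9% in the BAY-850 libraries, and its part in the result was not tested.

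**Figure D3:**
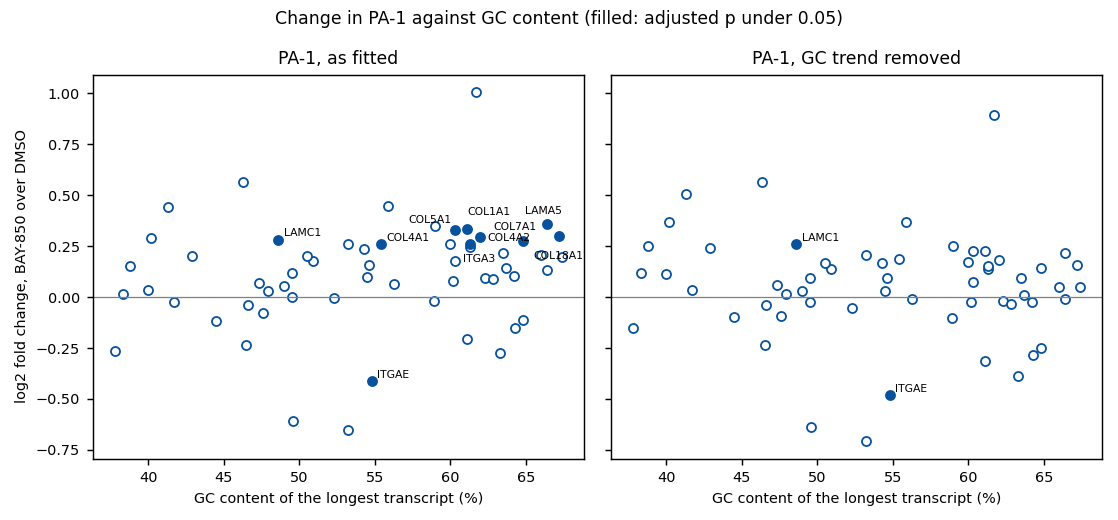
Log2 fold change in PA-1 (BAY-850 over DMSO, y axis) of 58 members tested against the GC content of their longest transcript in percent (x axis), as fitted and after removal of the GC trend; filled points are called. The 9 filled points above 0 on the left lie between 48.6% and 67.2% GC, and 1 of them, LAMC1, stays filled on the right.

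Whether the response differed between the lines was tested as the interaction of line and treatment, the log2 fold change in SK-OV-3 minus that in PA-1. Of 69 members tested, 19 had a lower and 3 a higher response in SK-OV-3, 31.9% beside 14.5% of all 16830 genes tested (7.77% lower and 6.70% higher). The median was -0.46 beside -0.02 for all genes. Over all genes, 1128 were higher and 1307 lower, and 1062 and 773 with library size alone. Of the 22 calls, 13 were collagens, 4 laminins and 5 integrins. Without SK-OV-3 BAY-850 replicate 3, the response was lower for 19 and higher for 6.

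The fibrillar genes COL1A1 (-1.11, SE 0.14, adjusted p = 6.25e-05), COL1A2 (-1.14, SE 0.21, adjusted p = 0.00213), COL5A1 (-0.87, SE 0.09, adjusted p = 1.6e-05) and COL5A2 (-1.09, SE 0.10, adjusted p = 5.12e-06) differed in response. So did COL12A1 (-1.24, SE 0.16, adjusted p = 0.000103). Both genes of the divergent pair differed, COL4A1 by -0.82 (SE 0.09, adjusted p = 4.01e-05) and COL4A2 by -0.46 (SE 0.09, adjusted p = 0.00333). COL6A1 (0.64, SE 0.11, adjusted p = 0.00172) and COL6A2 (0.69, SE 0.07, adjusted p = 1.24e-05) differed the other way, whereas COL6A3 had a difference of -0.44 (adjusted p = 0.172). In PA-1 these 3 genes had log2 fold changes of 0.21, 0.13 and 0.26, higher without overlap but not called (adjusted p = 0.0581, 0.158 and 0.0574). DESeq2 called COL6A1 and COL6A3 higher there. With the GC trend removed the changes were 0.09, -0.007 and 0.21, not called.

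Among the laminins, the interaction was called for LAMC1 (-0.62, SE 0.09, adjusted p = 0.00032), LAMB1 (-0.46, SE 0.10, adjusted p = 0.00547) and LAMA5 (-0.47, SE 0.13, adjusted p = 0.021). Among the members called higher in PA-1 and lower in SK-OV-3 were COL1A1, COL5A1, COL4A1 and LAMC1, each of which passed the interaction test. The interaction test does not by itself show the rise in PA-1. Over 17 alternative settings, the PA-1 call was lost in 7 for COL1A1, 3 for COL5A1, 7 for COL4A1 and 4 for LAMC1. With the GC trend removed, only LAMC1 of these kept it. ITGA3, higher in both lines, had a difference of 0.18 (adjusted p = 0.0838). It was called in the interaction with DESeq2, with library size without ribosomal RNA genes and where every library needed 10 counts. Removal of the GC trend, with or without the replicate block, also gave the call, as did leaving out SK-OV-3 BAY-850 replicate 3. Its PA-1 call was lost in 5 of 17 alternative settings, among them removal of the GC trend. Among the integrins the interaction was called for ITGA6 (-0.87, SE 0.11, adjusted p = 0.000129), ITGAV (-0.61, SE 0.12, adjusted p = 0.00313), ITGA7 (-0.56, SE 0.12, adjusted p = 0.00486), ITGB4 (-0.61, SE 0.18, adjusted p = 0.0383) and ITGA5 (0.29, SE 0.08, adjusted p = 0.0194). ITGA7 shares 44 exon bases with METTL7B on the opposite strand. For LAMA3 and ITGB6, which PA-1 hardly transcribes, the interaction was not called, with an SE of 1.15 and 1.58. COL5A3, the remaining call, was under 1 CPM, with 11, 10 and 9 counts in SK-OV-3 with DMSO and 1, 0 and 0 with BAY-850. Its call was lost with DESeq2, with no filter on counts, with the replicate block with or without GC offsets, and on leaving out PA-1 DMSO replicate 3, PA-1 BAY-850 replicate 1 or 2, any 1 of the SK-OV-3 DMSO replicates or SK-OV-3 BAY-850 replicate 2, and it was not tested where every library needed 10 counts.

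**Figure D4:**
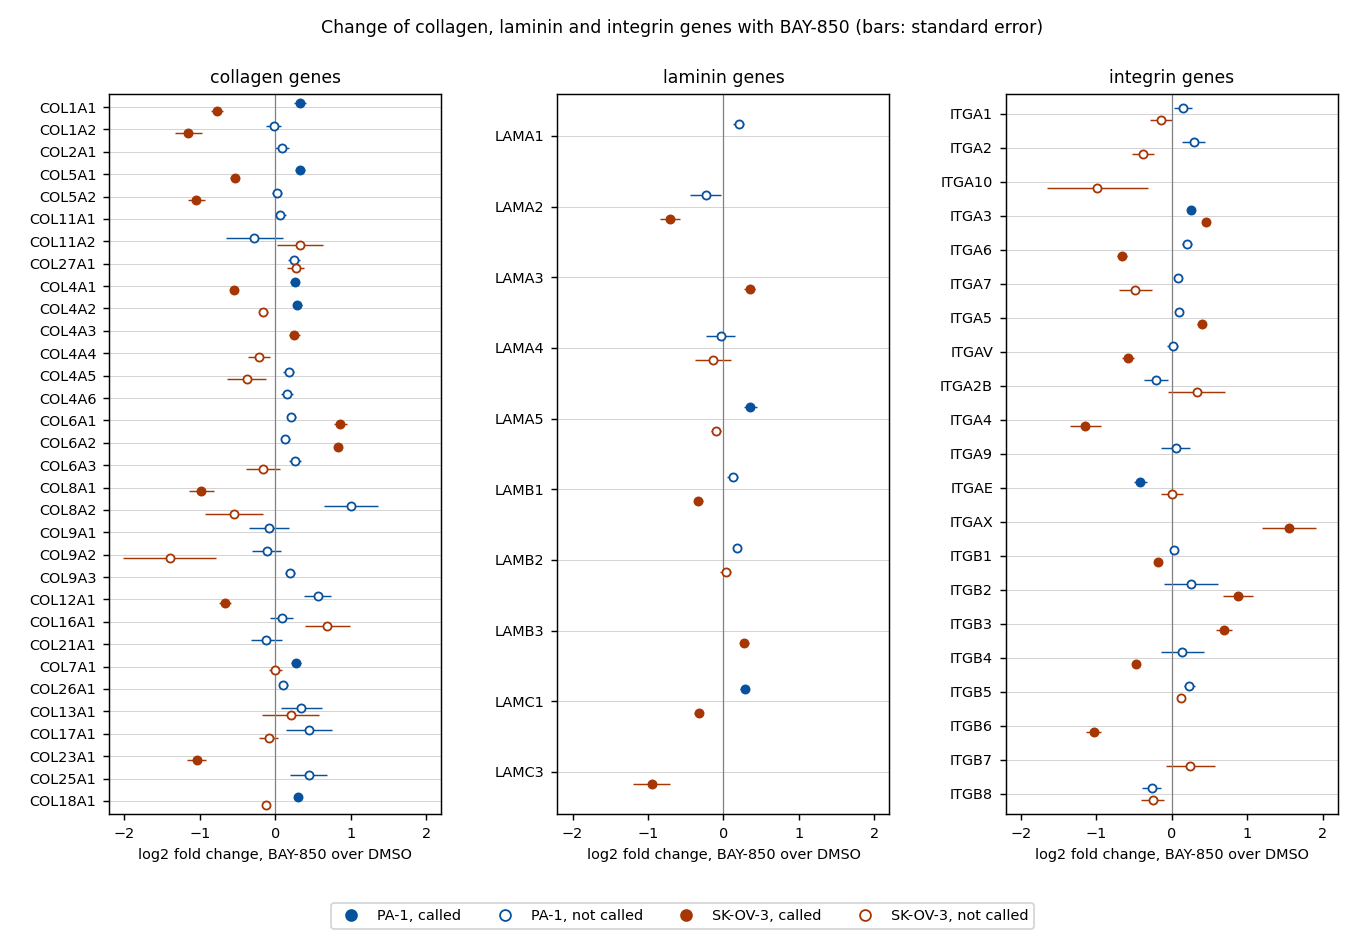
Log2 fold change with BAY-850 (x axis) of 63 members that were tested and had a mean of at least 1 CPM in a line, in panels by family, with PA-1 in blue and SK-OV-3 in brown, bars for the standard error and filled points for an adjusted p under 0.05; COL11A1 in SK-OV-3 is under 1 CPM and is not drawn. Filled brown points lie on both sides of 0 (COL6A1 and COL6A2 right, COL1A1, COL1A2, COL5A1 and COL5A2 left), and filled blue points lie to the right except ITGAE.

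Genes that process, bind or anchor the same molecules were followed through 4 lists of 93 genes, fixed by function. In PA-1, 26 of the 88 tested rose and 0 fell (1 at an unadjusted p under 0.05, and 0 by DESeq2), and in SK-OV-3 14 of the 92 tested rose and 22 fell. Over all genes, 4.65% were called higher and 2.48% lower in PA-1, and 10.8% higher and 9.56% lower in SK-OV-3. In PA-1 the number that rose was 8 with library size alone, 12 after removal of the GC trend, and 11, 9 and 10 without DMSO replicate 1, DMSO replicate 2 and BAY-850 replicate 2.

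Of the collagen modifying enzymes, 8 of 26 rose in PA-1, and 6 of 27 rose and 2 fell in SK-OV-3. The shares over all genes were 4.65% higher in PA-1, and 10.8% higher and 9.56% lower in SK-OV-3. LOX, which crosslinks collagen and elastin, was at 5.37, 5.42 and 5.97 CPM in PA-1 with DMSO and 13.9, 14.7 and 14.2 CPM with BAY-850, a rise of 1.35 (SE 0.11, adjusted p = 3.38e-06). In SK-OV-3 it was at 26.8, 26.6 and 28 CPM and then 51.1, 49.7 and 46.2 CPM, a rise of 0.86 (SE 0.07, adjusted p = 9.79e-06). PLOD2, a lysyl hydroxylase, rose by 1.07 (SE 0.07, adjusted p = 1.94e-07) in PA-1 and by 0.41 (SE 0.08, adjusted p = 0.00394) in SK-OV-3. The 4 enzymes called higher in both lines were LOX, PLOD2 and the prolyl hydroxylase subunits P4HA1 and P4HA2, the last 2 named after their values were seen. ADAMTS2, a procollagen peptidase, rose in SK-OV-3 by 0.85 (SE 0.19). BMP1, also a procollagen peptidase, fell by 0.66 (SE 0.07), and the collagen chaperone SERPINH1 fell by 0.35 (SE 0.05).

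Of the basement membrane and matrix glycoproteins, 7 of 23 rose in PA-1, led by EMILIN1 (0.49, SE 0.12) and the perlecan gene HSPG2 (0.44, SE 0.10). In SK-OV-3, 5 rose and 8 fell of 25. The shares over all genes were 4.65% higher in PA-1, and 10.8% higher and 9.56% lower in SK-OV-3. THBS1 fell by 1.53 in SK-OV-3 (SE 0.07, adjusted p = 1.05e-07), from 324, 354 and 371 CPM to 129.9, 124 and 108 CPM, and the integrin ligand TGFBI fell by 1.09 (SE 0.05, adjusted p = 9.09e-08). FN1, the fibronectin gene and ligand of the ITGA5 receptor, was at 1228, 1423 and 1457 CPM and then 2092, 2105 and 1953 CPM, a rise of 0.59 (SE 0.06, adjusted p = 4.57e-05). FN1 was called higher in PA-1 too. TNXB also rose in SK-OV-3, by 0.88 (SE 0.24).

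For the 2 lists that follow, the shares over all genes were 4.65% higher in PA-1, and 10.8% higher and 9.56% lower in SK-OV-3. Of the 13 non-integrin matrix receptors, 2 rose in PA-1 (DAG1 by 0.39 and DDR1 by 0.21), and 2 rose and 3 fell in SK-OV-3. The laminin receptor BCAM and the syndecan SDC4 rose there by 0.32 (SE 0.08) and 0.31 (SE 0.05), and the syndecan SDC1 fell by 0.54 (SE 0.05). DAG1, the dystroglycan gene, fell by 0.38 (SE 0.08). Of the integrin adhesion adaptors, 9 of 26 rose in PA-1, with TLN1 (talin, which activates integrins) at 0.43 (SE 0.07) and FLNA at 0.38 (SE 0.06). In SK-OV-3, 1 of 27 rose, PTK2 (focal adhesion kinase) by 0.23 (SE 0.05), and 9 fell. FERMT1, an epithelial kindlin that activates integrins, fell by 1.45 (SE 0.19, adjusted p = 0.000319), from 11.2, 11.1 and 9.98 CPM to 4.5, 4.53 and 2.79 CPM, and LIMS2 fell by 0.56 (SE 0.17).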

How the data were processed

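RNA of 12 libraries was sequenced after, per the labels, oligo-dT selection and dUTP strand marking, while the series text names ribosomal RNA depletion. The authors deposited 1 table of RSEM expected counts per gene symbol for the 12 libraries, and their processing notes name Bowtie2 2.1.0, RSEM 1.2.15 and hg38. The annotation and the use of strand in counting are not given in the sources used here. Expected counts were rounded and fitted within each line by edgeR 4.0.16 (quasi-likelihood F test, TMM factors, filterByExpr, Benjamini-Hochberg, threshold 0.05, R 4.3.3). The interaction was fitted on all 12 libraries. CPM used TMM over the 12 libraries. Exon lengths and GC content came from GENCODE annotation of GRCh38, and promoter windows from RefSeq. An exact permutation test of 3 against 3 cannot go below p = 0.1, so none was run.

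The members, lists and tests were chosen with earlier results of these data known. Genes called in a line with a mean of at least 1 CPM were named, at most 12 per line and direction by size, with chains that assemble with them, interaction calls, the 3 largest baseline differences per family and direction, and 2 partner genes per list, line and direction. Replicates of a group differed by more than sampling noise. Alternatives were DESeq2 1.42.0, limma-voom 3.58.1, other scalings and filters, GC correction, a replicate block and leaving out each replicate. The scripts were tested on simulated data. One member is counted but not reported singly here or drawn. The depth set by the library totals limits genes under 1 CPM.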

Additional observations from a re-analysis of the deposited data

Results flagged for a closer look

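The response to BAY-850 differed between PA-1 and SK-OV-3, by the interaction test, for 20 members described here with a mean of at least 1 CPM in a group (values are the log2 fold change in SK-OV-3 minus that in PA-1, edgeR's quasi-likelihood test). Among the collagens these were COL1A1 (-1.11), COL1A2 (-1.14), COL5A1 (-0.87), COL5A2 (-1.09), COL11A1 (-3.57), COL4A1 (-0.82), COL4A2 (-0.46), COL6A1 (0.64), COL6A2 (0.69), COL9A1 (-3.37), COL12A1 (-1.24) and COL18A1 (-0.44). Among the laminins they were LAMA5 (-0.47), LAMB1 (-0.46) and LAMC1 (-0.62). Among the integrins they were ITGA6 (-0.87), ITGA7 (-0.56), ITGA5 (0.29), ITGAV (-0.61) and ITGB4 (-0.61).

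The values of COL11A1 and COL9A1 rest on few counts in SK-OV-3. COL9A1 had 5, 3 and 5 counts with DMSO and 1, 0 and 0 counts with BAY-850, and COL11A1 had 14, 24 and 33 and then 5, 2 and 0. In replicate 3 of the SK-OV-3 BAY-850 group, where genes with few counts were scarce, both were at 0. The fitted difference of COL9A1 depends on the prior count and is no bound. Its call was lost in 10 of 21 alternative settings, with adjusted p from 0.0163 to 0.112, among them leaving out PA-1 DMSO replicate 2 or 3, PA-1 BAY-850 replicate 1, SK-OV-3 DMSO replicate 1 or 3, or SK-OV-3 BAY-850 replicate 2 or 3. The call of ITGB4 was lost in 11 of 22 (0.00366 to 0.242), among them leaving out PA-1 DMSO replicate 1 or 3, PA-1 BAY-850 replicate 2 or 3, any 1 of the SK-OV-3 DMSO replicates, or SK-OV-3 BAY-850 replicate 2. That of LAMA5 was lost in 7 of 22 (0.00181 to 0.0998), among them leaving out PA-1 DMSO replicate 1 or 2, PA-1 BAY-850 replicate 2 or SK-OV-3 DMSO replicate 3. That of ITGA7 was lost with limma-voom and with the replicate block and GC offsets (0.000184 to 0.0597), and that of ITGA5 without PA-1 BAY-850 replicate 1 (0.000643 to 0.0509).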

How the results depend on the processing

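Over the alternatives run, the SK-OV-3 counts stayed between 8 and 10 members higher and 17 and 24 lower, and the baseline counts stayed within 1.5 times of 35 and 26. No named member changed sign in a comparison in which it was called. The 10 PA-1 members that rose became 17 with DESeq2, 0 with library size only, 2 with the GC trend removed and 2 with the replicate block and GC offsets together, and 1 to 14 when 1 replicate was left out. The 1 that fell became 0 with all 12 libraries in one fit and 0 to 1 when 1 replicate was left out. The 26 partner genes that rose in PA-1 became 8 with library size only, 12 with the GC trend removed, 9 with the block and GC offsets and 14 with all 12 libraries in one fit, and 9 to 26 when 1 replicate was left out. The 3 members with a higher response in SK-OV-3 became 5 with DESeq2, 5 with at least 10 counts required in every library, and 2 to 6 when 1 replicate was left out. The causes of these shifts were not tested beyond the construction of each alternative.

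With the replicate number as a block, 10 members rose and 1 fell in PA-1, 10 rose and 19 fell in SK-OV-3, and 3 and 17 were called higher and lower in the interaction, and 35 and 26 between the lines. Same-numbered libraries correlated by -0.125 to 0.0297 in their deviations from the group means, and not every library correlated best with its own number, so the numbers were not taken to pair the cultures. Counts of all genes under the block were 624 higher and 307 lower in PA-1 and 1449 and 1267 in SK-OV-3. Counts of all genes in PA-1 were 1011 and 726 with DESeq2, 1038 and 588 with no filter, 391 and 157 with the GC trend removed, 305 and 95 with the block and GC offsets, and 469 and 214 with all 12 libraries in one fit, and 273 to 810 and 65 to 418 when 1 replicate was left out. In SK-OV-3 they were 993 to 2050 and 788 to 1852 when 1 replicate was left out. Among the named members, the call was lost in 57 of the PA-1 refits, 11 of those in SK-OV-3, 31 of the interaction and 0 of the baseline, and kept in 130, 363, 429 and 297. Depth limits the members under 1 CPM most, where a few counts decide a value.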

Other observations

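Members that lie next to each other in the genome (GENCODE annotation of GRCh38) did not always move together in SK-OV-3, an observation made after the values were seen. ITGA3 and COL1A1 lie 92807 bases apart on chromosome 17, and ITGA3 rose by 0.45 while COL1A1 fell by 0.77 on the log2 scale. COL3A1 and COL5A2 lie 19149 bases apart on chromosome 2, with log2 fold changes of -2.13 (adjusted p = 0.0719) and -1.04. ITGA1 and ITGA2, collagen receptor subunits that are 30115 bases apart on chromosome 5, had log2 fold changes of -0.14 and -0.38 and were not called. Leaving out SK-OV-3 BAY-850 replicate 3 called ITGA1, and leaving out SK-OV-3 DMSO replicate 1 called ITGA2. ITGA1 shares 475 exon bases with PELO, which lies inside it on the same strand, so reads of the pair may have been split.

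Of the collagen receptor alpha subunits (ITGA1, ITGA2, ITGA10 and ITGA11), edgeR called 0 of 4 tested in PA-1 and 0 of 3 tested in SK-OV-3, as did DESeq2. Over all genes edgeR called 7.13% and 20.4%, and so few members cannot be set apart from these shares. In PA-1 with DMSO, ITGA10 and ITGA11 had means of 0.36 and 0.56 CPM. At an unadjusted p under 0.05, 0 passed in PA-1 and 1 was lower in SK-OV-3. COL16A1 was at 1.61, 1.76 and 1.42 CPM in SK-OV-3 with DMSO and 2.81, 2.7 and 2.22 CPM in the treated libraries, without overlap, but its log2 fold change of 0.69 was not called (edgeR, adjusted p = 0.124) other than in the fit of all 12 libraries. COL8A2 was at 0.64, 0.69 and 0.51 CPM in PA-1 with DMSO and 1.14, 1.32 and 1.24 CPM in the treated ones, and its difference of 1.01 on the log2 scale was not called either (edgeR, adjusted p = 0.107).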
